A study of Sus scrofa with 12 samples.

Results

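The genes described here are those of the phagocyte NADPH oxidase and of macrophage surface receptors in pig liver, together with WAS, a regulator of the actin skeleton of blood cells. They were chosen by name as WAS, NCF4, NCF1, CYBB, CYBA, CD14, CD163, CD68 and MARCO, and the choice was made with earlier results of the same arrays known. Of these 9 genes, 8 had at least 1 probe set carrying their name, and they held 12 of the 24123 probe sets of the array. CYBB was found under its older name GP91-PHOX through its Entrez identifier. No probe set carried the name CD68, which was not analysed here. After the dimmest probe sets had been left out, 15999 probe sets remained for the fits, 10 of them of the 8 genes, and the second probe sets of NCF1 and MARCO were among those left out.

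The phagocyte NADPH oxidase makes superoxide at the membrane of phagosomes. Its membrane part is a pair of subunits, the catalytic one encoded by CYBB and its partner by CYBA, and its cytosolic subunits, among them the products of NCF1 and NCF4, join on activation together with a small GTPase of the Rac family. WAS encodes the Wiskott-Aldrich syndrome protein, which in blood cells drives branching of actin filaments through the Arp2/3 complex and is used in phagocytosis and migration. CD14 is the co-receptor that hands bacterial lipopolysaccharide to TLR4, CD163 the macrophage receptor for complexes of haptoglobin and haemoglobin, and MARCO a scavenger receptor for bacteria and particles. In liver these genes are best known from Kupffer cells, the resident macrophages of the sinusoids, and CD14 and LBP are also made by hepatocytes.

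Liver RNA from adult German Landrace pigs was hybridised to the Affymetrix porcine array, 1 array for each of 12 animals. By the labels every animal had a low or a high stress response and low or high aggressiveness, which makes 4 groups of 3 animals, 1 female and 2 males in each. The labels do not say how either trait was scored, give no treatment, and all animals share breed and tissue. An animal's name gives its stress response first and its aggressiveness second: high-low 3, for example, had a high stress response, low aggressiveness and replicate number 3. The females were low-low 1, low-high 3, high-low 1 and high-high 3. Because the genes were chosen with the differences by stress response and aggressiveness in view, those differences are given as a description, with the standard error (SE) from the fit and no p-value, and counts past a threshold are printed only beside the share of the whole array. Sex was tested.

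Signals are linear intensities scaled per array, with a median between 93.3 and 117.4, and levels are compared only within a probe set. Median correlations of an array with the other arrays lay between 0.954 and 0.963, lowest for high-high 3 (0.954), low-high 3 (0.955) and high-low 3 (0.956). All 11 measured hepatocyte markers were bright, with ALB at a mean signal of 47290 and APOA1 at 55570. The number of arrays limits the precision, and in whole liver fewer cells of a type and less RNA per cell cannot be told apart. A log2 fold change below is that of signal + 16, which understates changes of dim probe sets.

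WAS had the lowest signals where both traits were low and the highest where both were high. Its probe set (Ssc.18550.1.S1_at) gave signals of 83.1, 76.0 and 82.4 in the low-low animals and 125, 140 and 143 in the low-high animals. The high-low animals had 128, 111 and 94.6, and the high-high animals had 185, 207 and 157. The lowest high-high animal was thus above the highest low-high animal, and the lowest high-low animal above the highest low-low animal, while low-high and high-low overlapped. Group means were 80.5 ± 3.92, 136 ± 9.47, 111 ± 16.7 and 183 ± 25.1 (SD, n = 3 each). High against low aggressiveness differed by 0.65 ± 0.11 (log2 fold change ± SE), and high against low stress response by 0.39 ± 0.11. The aggressiveness difference was 0.66 ± 0.17 within low stress response and 0.64 ± 0.17 within high stress response, so that the interaction, their difference, was -0.01 ± 0.24.

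NCF4, the cytosolic subunit that binds a phosphoinositide of the phagosome membrane, was higher at high aggressiveness within both levels of stress response. Its signals (Ssc.17826.1.S1_at) were 81.2, 81.8 and 76.3 in low-low, 107, 92.8 and 133 in low-high, 85.1, 96.6 and 94.5 in high-low, and 127, 129 and 121 in high-high animals. The 3 high-high animals lay above all high-low animals, and the 3 low-high animals above all low-low animals. By stress response the high-low animals lay above the low-low animals, but high-high and low-high overlapped. The log2 fold change was 0.39 ± 0.11 for aggressiveness and 0.17 ± 0.11 for stress response, and the interaction was -0.00 ± 0.23. Signals of WAS and NCF4 were steady between animals of a group: the SD within groups on the log2 scale was 0.143 for WAS and 0.126 for NCF4, at percentiles 6.2 and 3.7 of all tested probe sets, whose median was 0.315. A choice of genes on differences between the same groups can itself favour a small spread within them. With the trend and robust options of limma the SE of the aggressiveness difference was 0.16 for both genes.

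**Figure D1:**
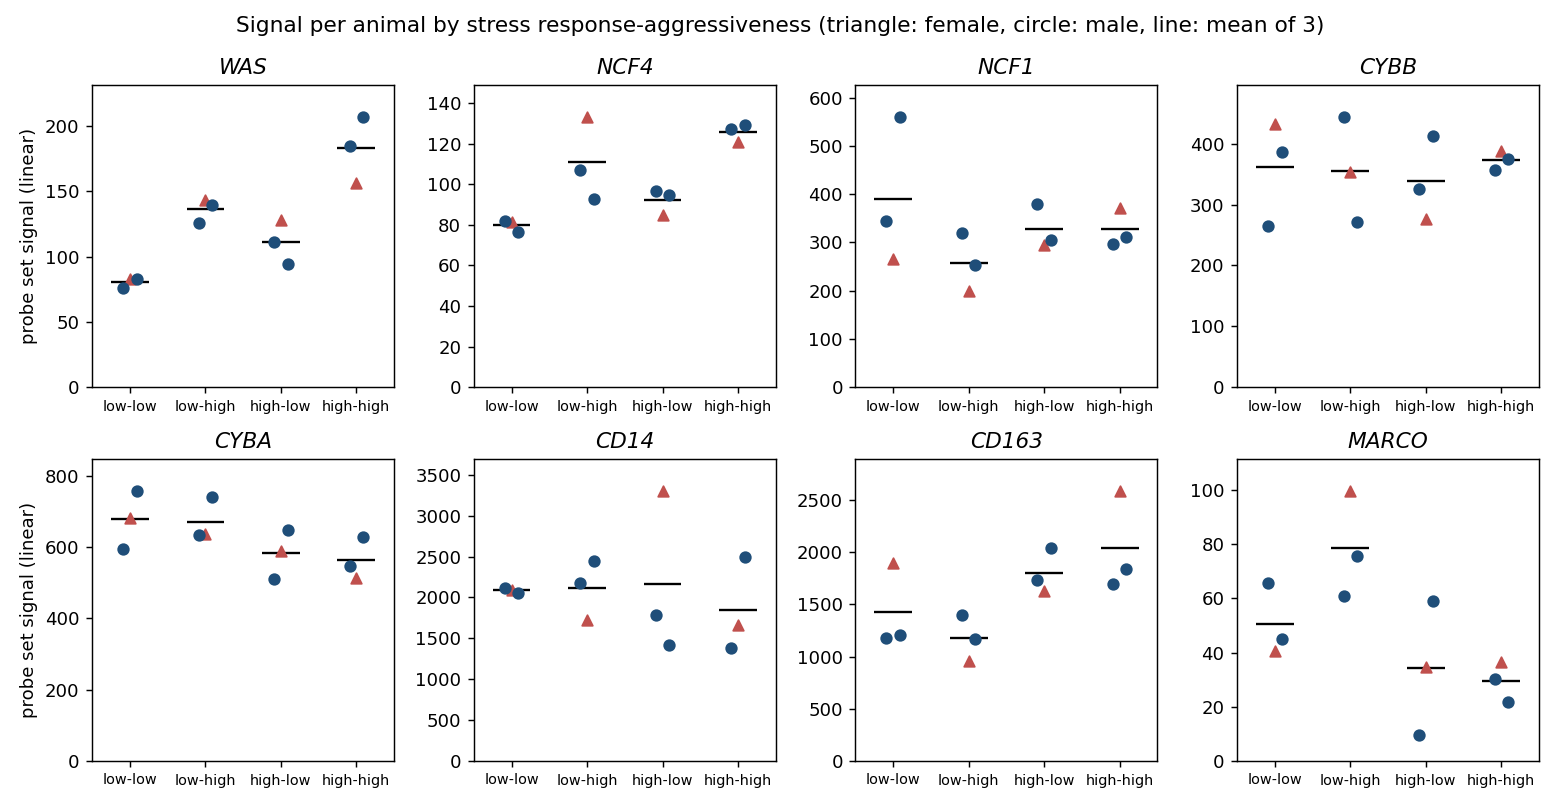
Probe set signal (linear scale from 0) of each of the 8 genes in every animal, by group written as stress response-aggressiveness, with triangles for females, circles for males and a line at the mean of 3. WAS lies between 76.0 and 83.1 in low-low and between 157 and 207 in high-high animals, NCF4 separates by aggressiveness within each stress level, and CD163 and MARCO differ mainly by stress response, in opposite directions.

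How often groups of this size stand apart over the whole array was counted in the same way. Of all tested probe sets, 24 (0.15%) were higher at high aggressiveness within both stress levels with no overlap, and 2 of the 8 genes, WAS and NCF4, were among them. For higher signals at high stress response within both aggressiveness levels the count was 110 (0.688%), with WAS as the only one of the 8 genes. None of the 8 was lower without overlap within both levels, for aggressiveness (0.106% of probe sets) or stress response (0.369%). WAS was also the only tested probe set with no overlap in all 4 of these comparisons (0.00625%). That count depends on the scaling: after quantile normalization or median centring no probe set kept all 4, as WAS then kept 1 of 2 stress separations and NCF4 none, while both genes kept their 2 aggressiveness separations. Between single pairs of groups such gaps are more common on this array. WAS and NCF4 were the 2 of 8 genes higher in high-high than in high-low (3.78% of probe sets), in low-high than in low-low (4.25%), in high-low than in low-low (6.32%) and in high-high than in low-low animals (6.91%), the last with MARCO lower (4.28%). In the first 3 of these pairs none of the 8 was lower (3.76%, 3.48% and 4.48% of probe sets). High-high animals were above low-high animals in WAS and CD163 (6.33%) and below them in CYBA and MARCO (4.49%), and high-low animals were above low-high animals in CD163 (5.16%) and below them in MARCO (4.14%). With all 6 animals of a level against the other 6, none of the 8 genes was free of overlap for aggressiveness (0.0625% of probe sets higher, 0.025% lower) or stress response (0.388% higher, 0.15% lower). These counts are given as a description, since the choice of genes used the same groups.

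The other subunits of the oxidase did not share the pattern of WAS and NCF4. CYBB, the catalytic subunit (Ssc.151.1.S1_at), had signals of 432, 265 and 386 in low-low, 443, 271 and 353 in low-high, 276, 326 and 414 in high-low, and 357, 376 and 389 in high-high animals. All 4 groups overlapped, and the log2 fold changes were 0.01 ± 0.17 for stress response and 0.07 ± 0.17 for aggressiveness. The 3 high-high animals lay close together, with an SD of 15.8 against 69.6 to 86.2 in the other groups.

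CYBA, which stabilises the catalytic subunit (Ssc.16296.1.S1_at), was somewhat lower at high stress response. Its signals were 682, 595 and 758 in low-low and 634, 740 and 636 in low-high animals, against 590, 511 and 648 in high-low and 547, 629 and 513 in high-high animals. All high-high animals were below all low-high animals, whereas high-low and low-low overlapped. The log2 fold change for stress response was -0.23 ± 0.12 and for aggressiveness -0.03 ± 0.12. In size the difference by stress response was below that of WAS (0.39 ± 0.11), with errors that leave the gap between them unresolved. The SD within groups was nearly as low as that of WAS, at 0.154.

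NCF1, the organising cytosolic subunit (Ssc.12159.1.A1_at), had signals of 265, 345 and 559 in low-low, 320, 253 and 199 in low-high, 294, 380 and 306 in high-low, and 297, 312 and 371 in high-high animals. Low-low 3 was the highest of all animals and low-high 3 the lowest, and the 4 groups overlapped. The aggressiveness difference was -0.53 ± 0.25 within low stress response and 0.00 ± 0.25 within high stress response, an interaction of 0.53 ± 0.35, and it was -0.26 ± 0.18 over both levels. Without low-low 3 the last value was -0.12 and the interaction 0.28, and without high-high 3 and high-low 3 the interaction was 0.14. For stress response the main probe set gave 0.08 ± 0.18 and the dim second one (Ssc.12159.2.S1_at, signals 6.40 to 96.0, not tested) -0.72 ± 0.31, so that the probe sets of NCF1 did not give the same direction. Over the 12 animals they correlated at only r = 0.227 (rho = -0.07).

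CD163 had higher signals at high stress response in most animals. Its brighter probe set (Ssc.5053.1.S1_at) gave signals of 1900, 1176 and 1202 in low-low and 1400, 1170 and 954 in low-high animals, against 1624, 1730 and 2043 in high-low and 1692, 1837 and 2587 in high-high animals. Of the 6 animals with a low stress response only low-low 1, a female, was above the lowest with a high one. The means were 1300 ± 326 and 1919 ± 358 (SD, n = 6 each), and the log2 fold change was 0.57 ± 0.18. It was 0.36 ± 0.25 within low and 0.78 ± 0.25 within high aggressiveness, where the groups did not overlap. The gap between these values, 0.42 ± 0.35, was 0.17 without low-high 3 and -0.20 in males only. For aggressiveness CD163 differed by -0.05 ± 0.18. The dimmer probe set (Ssc.11991.1.A1_at, signals 34.2 to 219) gave 0.41 ± 0.39 for stress response, in the same direction but with an error nearly as large.

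MARCO differed by stress response the other way, at low signals. Its main probe set (Ssc.19357.1.S1_at) gave 40.4, 65.8 and 45.1 in low-low, 60.8, 75.8 and 99.6 in low-high, 34.5, 9.63 and 58.9 in high-low, and 30.2, 21.9 and 36.7 in high-high animals. All 3 high-high animals were below all animals with a low stress response, and high-low 3 reached into the range of low-low. The means were 64.6 ± 21.6 at low and 31.97 ± 16.5 at high stress response (SD, n = 6 each), and the log2 fold change was -0.78 ± 0.25. Within low aggressiveness it was -0.51 ± 0.35 and within high aggressiveness -1.05 ± 0.35, a gap of -0.53 ± 0.49 that was -0.13 without high-low 3. The probe set was barely bright enough to be kept, as the lowest mean signal tested was 40.58. With an added constant of 64 in place of 16 the stress difference was -0.42, and the second probe set (Ssc.19357.2.S1_at, 3.75 to 94.0, not tested) gave -0.03 ± 0.45.

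CD14 showed no pattern shared by its probe sets. The brighter one (Ssc.4978.1.S1_at) gave 2094, 2121 and 2059 in low-low, 2182, 2444 and 1718 in low-high, 3302, 1785 and 1420 in high-low, and 1386, 2496 and 1659 in high-high animals. The low-low animals lay close together (SD 31.1), whereas the high-low animals held both the highest of the 12 signals and nearly the lowest. The log2 fold changes were -0.13 ± 0.21 for stress response and -0.09 ± 0.21 for aggressiveness. The other probe set (Ssc.4978.2.S1_at, 93.5 to 439) gave -0.33 ± 0.25 and 0.54 ± 0.25, so that the direction for aggressiveness depended on the probe set. In that probe set high-low 3 had 93.5, far below the 268 of the next animal.

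**Figure D2:**
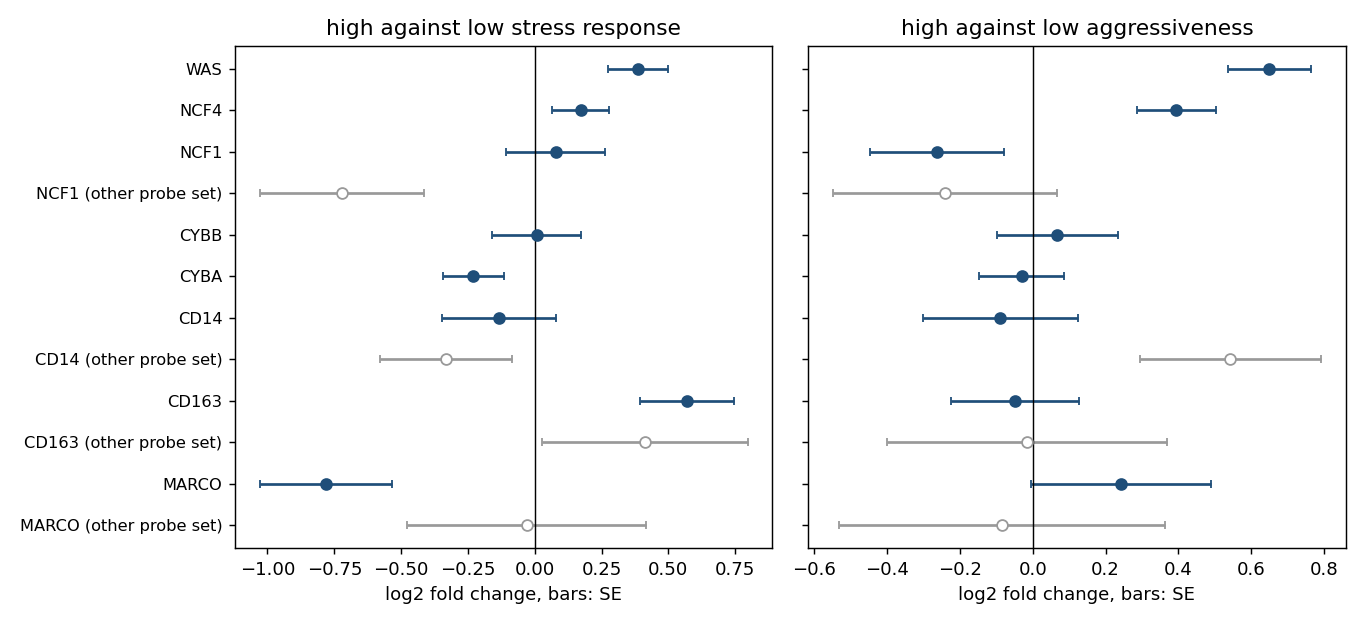
Log2 fold change of every probe set of the 8 genes for high against low stress response (left) and high against low aggressiveness (right), with bars for the SE; filled points are the probe set that stands for the gene, open points the others. WAS and NCF4 lie furthest above 0 for aggressiveness among the filled points (0.65 and 0.39), and CD163 (0.57) and MARCO (-0.78) furthest from 0 for stress response.

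Set beside the whole array, none of the 8 genes passed an adjusted p of 0.05 (limma with Benjamini-Hochberg adjustment over 15999 probe sets) for stress response, aggressiveness or their interaction, and neither did any other probe set (0% each). At an unadjusted p under 0.05, 3 of the 8 genes passed for stress response, where 1305 probe sets (8.16%) did, 2 for aggressiveness (515 probe sets, 3.22%) and none for the interaction (619 probe sets, 3.87%). At 0.01 the counts were 2 higher (1.24% of probe sets) and 1 lower (0.669%) for stress response, and 2 higher (0.313%) for aggressiveness. Nothing is read from these counts, because the genes were chosen on those comparisons. Over the 8 genes the directions were mixed. For stress response 5 of 8 were above 0 (55.7% of probe sets), with a median of 0.04 against 0.03 over all probe sets, and for aggressiveness 4 of 8 (52%), with a median of 0.02 against 0.01. The former count was 3 of 8 without high-high 3, and the latter 7 of 8 in males only.

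Between the sexes, which the choice of genes is not known to have used, none of the 8 genes differed at an adjusted p of 0.05 by limma, where 11 of all probe sets (0.0688%) did, and none at an unadjusted p of 0.05 (834 probe sets, 5.21%). None was free of overlap between the sexes either (0.219% of probe sets higher in males, 0.225% lower). Males against females ranged from -0.17 ± 0.26 for MARCO to 0.28 ± 0.20 for NCF1, and the adjusted p-values by limma lay between 0.949 and 0.994. WAS had a mean of 128 ± 32.01 in females (SD, n = 4) and 128 ± 47.4 in males (SD, n = 8), and its difference was -0.04 ± 0.12. The difference of NCF4 between the sexes was -0.05 ± 0.11. In WAS and NCF4 these values were smaller in size than those by aggressiveness (0.65 ± 0.11 and 0.39 ± 0.11). With 4 females small differences between the sexes could not be resolved.

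A measure of RNA quality moved with aggressiveness. The array carries control probe sets at the 3' and 5' ends of long transcripts, and a higher 3' to 5' ratio goes with shortened RNA or complementary DNA. For EF1A the log2 ratio was 0.685 to 0.748 in the 6 animals with low aggressiveness and 0.757 to 0.993 in the 6 with high aggressiveness, with no overlap. The ratios of GAPDH (0.785 ± 0.12 against 0.83 ± 0.16) and actin (5.07 ± 0.332 against 5.1 ± 0.243, SD, n = 6 each) overlapped. Over the 12 animals the EF1A ratio correlated with NCF4 at r = 0.912 (rho = 0.818) and with WAS at r = 0.738 (rho = 0.818). Within the 6 animals of low aggressiveness these values were 0.03 and -0.045, and within the 6 of high aggressiveness 0.895 and 0.303. With the EF1A ratio as a covariate, an alternative added after the data had been seen, the aggressiveness difference of NCF4 was 0.12 ± 0.21. That of WAS was 0.73 ± 0.24, and that of CD14, -0.09 without it, 0.67 ± 0.36. Because this ratio separated the aggressiveness levels, the fit could hardly tell ratio and trait apart, and its errors were larger. With the planned covariate, the mean of the EF1A, GAPDH and actin ratios, the difference was 0.33 ± 0.11 for NCF4 and 0.65 ± 0.13 for WAS. The part of RNA quality in the differences was not tested.

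**Figure D3:**
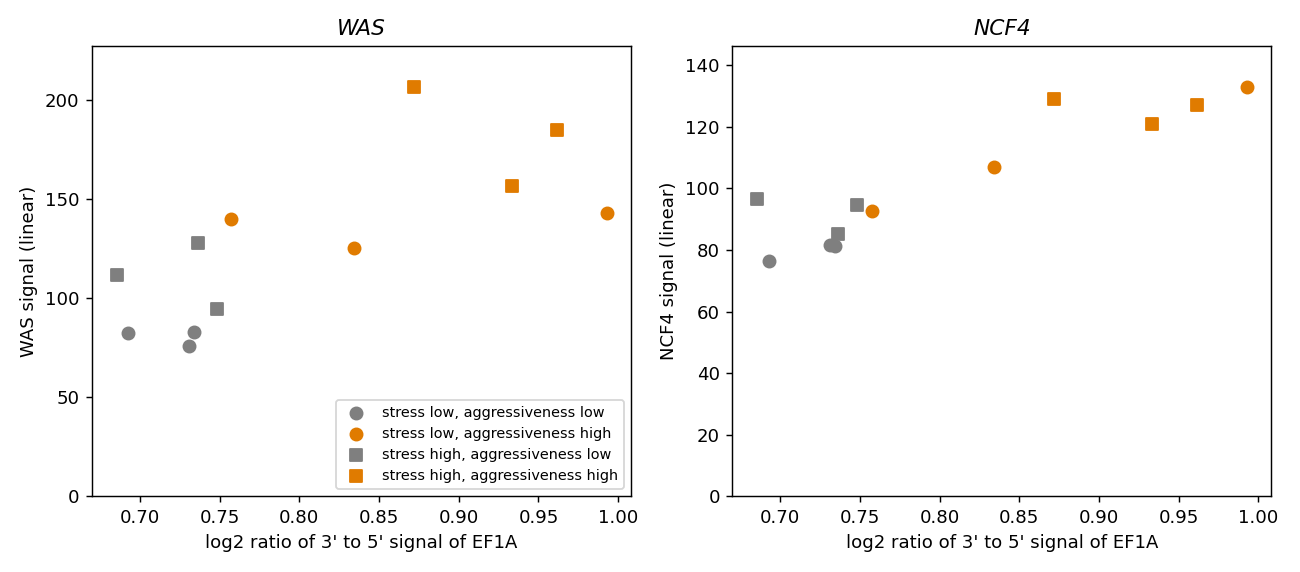
Signal of WAS (left) and NCF4 (right) in each of the 12 animals against the log2 ratio of 3' to 5' signal of EF1A; colour marks aggressiveness and the symbol stress response. The ratio separates the aggressiveness levels without overlap (0.748 and below against 0.757 and above), and within high aggressiveness NCF4 follows it (r = 0.895, n = 6) more closely than WAS does (r = 0.303, n = 6).

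The 8 genes did not vary together between animals. Over the 28 pairs, Pearson's r of log2 values ran from -0.597 to 0.857 with a median of -0.029, and 11 pairs were above 0; these values are a description over 12 animals that share the group differences above. WAS and NCF4 were the closest pair (r = 0.857, rho = 0.832, and r = 0.814 without the 2 animals farthest from the median of WAS). On deviations from the 4 group means their r was 0.013, so the likeness seen over the 12 animals lay between the groups. The genes were chosen with those group differences in view. With few animals and little spread within groups, a likeness between animals of a group could not be judged. CD163 and MARCO were the most opposed pair (r = -0.597, rho = -0.636), and within groups their r was -0.049. CYBA and MARCO, both lower at high stress response, had r = 0.548 (rho = 0.608) and 0.197 within groups. CYBB and CYBA, the membrane partners of the oxidase, had r = 0.092 (rho = 0.238), and r = 0.415 without the 2 animals farthest from the median of CYBB. The pairs highest within groups were WAS and CD14 (0.657, with -0.015 over all animals) and CYBB and CD163 (0.593).

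**Figure D4:**
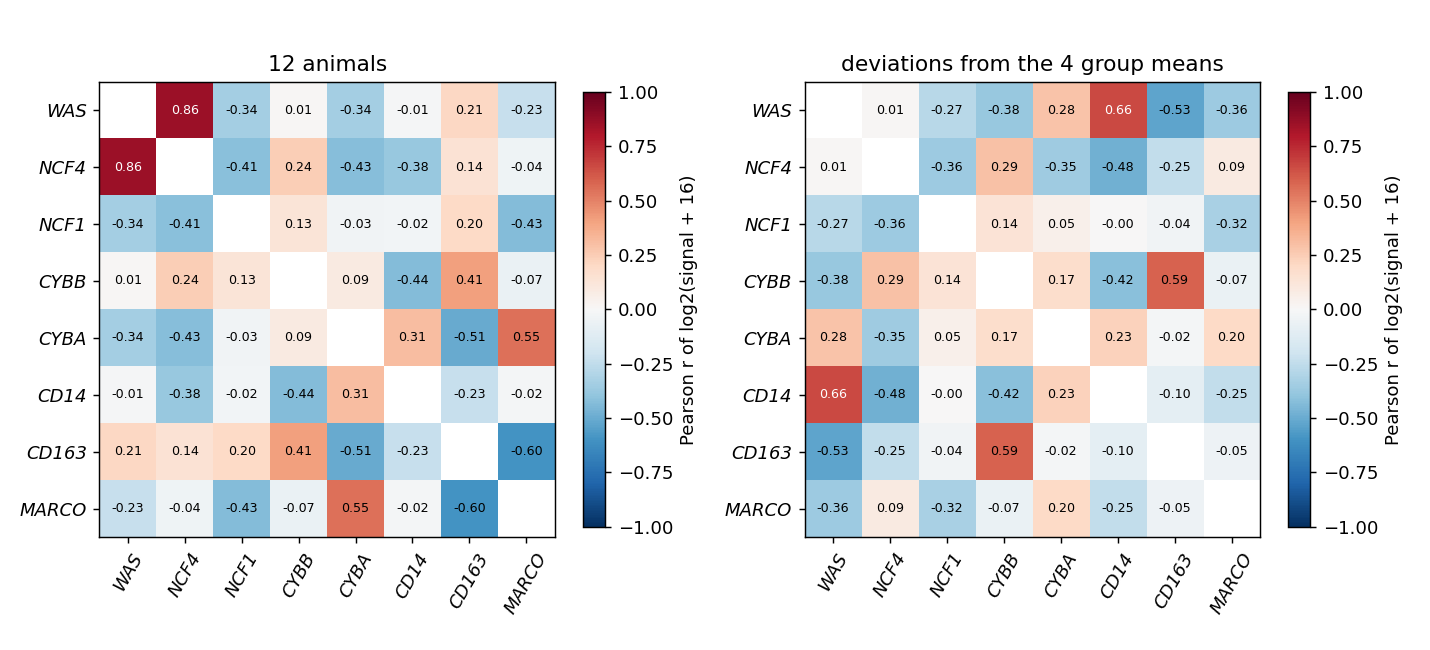
Pearson's r between the 8 genes over the 12 animals (left) and after the 4 group means had been subtracted (right), with colour from -1 to 1. The pair of WAS and NCF4 goes from 0.86 on the left to 0.01 on the right, and most other pairs are weak in both panels.

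Among the other named genes of the array, those most like each gene over the 12 animals were mostly outside the macrophage lists. NCF4 was the gene closest to WAS (r = 0.857), followed by BCCIP (0.831) and MED10 (0.8), with 0.013, 0.401 and 0.297 within groups. The genes closest to NCF4 were TMEM151B (0.889), CASTOR1 (0.861) and N4BP1 (0.857), and these stayed at 0.728, 0.91 and 0.77 within groups. CYBB was closest to RPL22 (0.889), SLC5A10 (0.849) and DGKZ (0.847), and CYBA to POP7 (0.896), GLTP (0.878) and NCOA4 (0.873). NCF1 was closest to RBL2 (0.842), APIP (0.833) and FLOT2 (0.831), with lower rank correlations (rho = 0.483, 0.65 and 0.741). The genes closest to CD14 were CCDC124 (0.94), POLR2G (0.819) and COMTD1 (0.813), those closest to CD163 were C2H11orf98 (0.905), TMEM170A (0.903) and BRPF3 (0.897), and those closest to MARCO were ARAP3 (0.801), EVL (0.797) and GNPTAB (0.784). Each gene was picked for the highest r among 5810 genes over 12 animals, and the values carry no test.

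The rest of the oxidase machinery showed no difference past the thresholds. Of 6 other measured genes of the oxidase and its activation, 5 were above 0 for stress response (median 0.10) and 2 for aggressiveness (median -0.05), and 0 passed an adjusted p of 0.05 or an unadjusted p of 0.01 by limma in either comparison. RAC2, the Rac GTPase of blood cells, differed by -0.09 ± 0.12 for stress response and -0.07 ± 0.12 for aggressiveness, and the widely expressed RAC1 by 0.25 ± 0.16 and -0.07 ± 0.16. The kinases PRKCB and PRKCD, which phosphorylate the cytosolic subunits, had aggressiveness differences of 0.31 ± 0.25 and 0.25 ± 0.25. PIK3CG and PIK3C3, lipid kinases, had -0.41 ± 0.25 and -0.03 ± 0.20. The value of PRKCB averages unlike levels: within low stress response it was 0.855 ± 0.276, and the interaction was -1.10 ± 0.39. PIK3CG had an interaction of -0.95 ± 0.43. For the interaction 4 of the 6 genes were above 0, and 0 passed either threshold by limma.

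The partners of WAS in actin branching had medians near 0. Of 17 measured genes, 5 were above 0 for aggressiveness (median -0.03) and 8 for stress response (median -0.01), and 0 passed either threshold by limma. The Arp2/3 subunits ARPC1B, ARPC3 and ARPC5 differed by -0.07 ± 0.10, -0.00 ± 0.11 and 0.01 ± 0.14 for aggressiveness. WIPF1, which binds and stabilises the WAS protein, had -0.36 ± 0.27 and VAV1, an exchange factor of blood cells, 0.34 ± 0.21.

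Markers of macrophages and of leukocytes as a whole did not separate the groups. Of 12 measured macrophage genes, 9 were above 0 for aggressiveness (median 0.04) and 8 for stress response (median 0.06), and 0 passed an adjusted p of 0.05 by limma. At an unadjusted p of 0.01 only LGMN, a lysosomal protease, passed, lower at high stress response by -0.38 ± 0.11. These averages join unlike levels. For aggressiveness 4 of the 12 were above 0 within low and 10 within high stress response. For stress response 4 were above 0 within low and 10 within high aggressiveness. The interaction was above 0 in 10 of 12 (49.4% of probe sets), with a median of 0.152 against -0.0045 over all probe sets, and 0 passed either threshold by limma. Summed signals follow mainly the brightest probe sets of a list. Here these were LGMN, C1QC, CD5L and CTSS, with mean signals of 15910, 11740, 10560 and 10260, against 114 for SPI1. The summed signal of these 12 macrophage genes ran from 62180 to 72800 in low-low, 62040 to 66210 in low-high, 57920 to 62970 in high-low and 59900 to 69470 in high-high animals. That of 4 genes of all leukocytes ran from 3622 to 5600, 4233 to 5025, 3842 to 5050 and 3950 to 4890 in the same order, and that of 4 neutrophil genes from 226 to 970, 239 to 446, 352 to 615 and 258 to 544. For 10 T and NK cell genes the ranges were 1689 to 1882, 1523 to 2385, 1630 to 1970 and 1559 to 2079. In each of these 4 lists the groups low-low and high-high, between which WAS differed most, overlapped. Of 11 hepatocyte markers, 10 were above 0 for aggressiveness (median 0.15) and 7 for stress response (median 0.07), and 0 passed either threshold by limma in these comparisons. Their summed signal was 328200 to 399300 in low-low, 361000 to 469500 in low-high, 363400 to 420100 in high-low and 408700 to 416100 in high-high animals. Here low-low and high-high did not overlap, and the part of this sum in the differences of WAS and NCF4 was not tested. SPI1, the myeloid transcription factor known as PU.1, had the highest values of the 12 macrophage genes, 0.23 ± 0.12 for aggressiveness and 0.19 ± 0.12 for stress response. Below 0 for aggressiveness were CD5L (-0.20 ± 0.12), VSIG4 (-0.10 ± 0.15) and MRC1 (-0.09 ± 0.13). For stress response CD5L (-0.15 ± 0.12), C1QA (-0.21 ± 0.15), AIF1 (-0.06 ± 0.15) and LGMN were below 0.

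Genes that work with the receptors were also read. Of 8 measured genes of lipopolysaccharide recognition, 6 were above 0 for stress response (median 0.15), and 0 passed either threshold by limma. LBP, the serum protein that loads CD14, had 0.94 ± 0.32, LY96 0.25 ± 0.14, TLR4 0.14 ± 0.19 and TLR2 0.36 ± 0.25. The interaction of TLR2 was 1.02 ± 0.42. The summed signal of the 8 genes follows mainly LBP (mean 8337). It was 8757 to 14090 in low-low and 14970 to 17750 in high-low animals. In low-high animals it was 8002 to 13190 and in high-high animals 13800 to 22160. Within both aggressiveness levels it was thus higher at high stress response with no overlap, as were 0.688% of single probe sets. Of 6 genes that bind or break down haemoglobin, the ligand side of CD163, 2 were above 0 for stress response (median -0.00), and 0 passed. HP, haptoglobin, was at -0.00 ± 0.14 and HMOX1, haem oxygenase, at -0.03 ± 0.21. Furthest from 0 was BLVRA, at -0.45 ± 0.17.

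**Figure D5:**
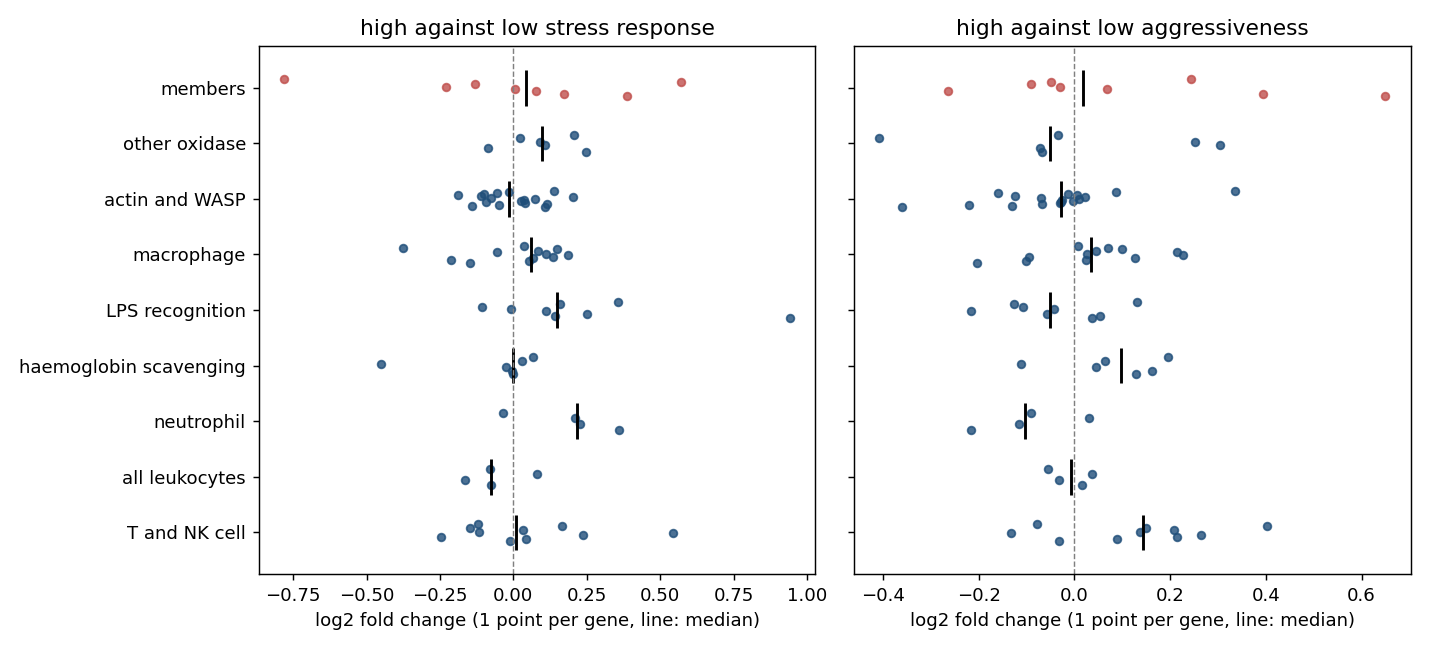
Log2 fold change of each measured gene (1 point per gene, line at the median) of the 8 chosen genes in red and of 8 related lists in blue, for stress response (left) and aggressiveness (right). Medians of the lists stay within -0.10 to 0.22, and the chosen genes spread to both sides of 0 around medians of 0.04 and 0.02.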

How the data were processed

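Liver RNA of 12 pigs was measured on 12 arrays. The deposited values are probe set intensity on a linear scale, made by the authors with GCOS 1.1.1 per the submitters' processing notes; the summary of probes and the scaling are not given in the sources used here. The mean after trimming 2% was 500.2 on every array, and values were used as deposited. Groups and sex came from the labels.

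The 124 controls and then the lowest 33.3% of probe sets by mean were left out. log2(signal + 16) was fitted in limma 3.58.1 (R 4.3.3) with stress response, aggressiveness and sex (8 residual degrees of freedom), and again with the interaction (7). P-values were adjusted over 15999 probe sets. Of the probe sets, 10099 had 1 symbol, 198 several and 13826 none. A gene is its kept probe set of highest mean. The genes and lists were chosen with earlier results of these data known. Named were all probe sets of the chosen genes, the 3 genes most correlated with each, list genes past an unadjusted p of 0.01 and the oxidase list; further list genes were named after their values were seen. Alternatives covered covariates, filters, scaling, weights, constants, males only and omitted animals. The fit was tested on simulated data. Gene and promoter sequences were not analysed here.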

Additional observations from a re-analysis of the deposited data

Results flagged for a closer look

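Within groups of 4 to 8 animals, a single animal stood far from the others of its group by Dixon's criterion in 10 of 72 groups examined. Chance meets this criterion in about 1 in 20 groups of independent, normally distributed values. The groups here held linear signals of the same animals, split by stress response, aggressiveness and sex. That rate therefore cannot be set against the count. For the main probe set of CD14, high-low 1 had 3302 where the next animal of low aggressiveness had 2121. For its other probe set, high-low 3 had 93.46, the lowest both of the animals with low aggressiveness (next 267.7) and of the males (next 277.4). For the dimmer probe set of CD163, high-high 3 had 219.4 among the animals of high aggressiveness, with the next at 79.6. For the main probe set of MARCO, low-high 3 had 99.63 among the females, with the next at 40.42. For the dim one, high-low 3 had 93.98 among the animals of high stress response (next 29.3) and among the males (next 29.85), and low-high 3 had 86.45 among those of high aggressiveness (next 29.85). For NCF1, low-low 3 was the highest male in both probe sets, with 559.2 (next 380.5) and 96.04 (next 44.09). No probe set of WAS, NCF4, CYBB or CYBA held such an animal.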

How the results depend on the processing

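Counts at an adjusted p of 0.05 over all probe sets changed little between the settings run. For stress response the count of 0 became 1 without high-low replicate 2 and 1 without low-low replicate 3, and stayed 0 in all other settings; leaving out each animal gave 0 to 1. For the interaction it became 2 without high-high 3 and high-low 3, and leaving out each animal gave 0 to 1, with 1 without high-low replicate 3 and without low-high replicate 1. For sex the 11 calls became 7 with the lowest 50% left out, and 10 to 12 with an animal left out. For aggressiveness it was 0 in every setting. Leaving out each animal in turn, the aggressiveness difference ran from 0.61 to 0.71 for WAS and from 0.33 to 0.44 for NCF4, and the stress difference from 0.43 to 0.70 for CD163, from -0.99 to -0.63 for MARCO and from -0.28 to -0.18 for CYBA, with no change of sign in any setting run with these probe sets. MARCO was not measured with the lowest 50% left out. The difference of CYBB by stress response changed sign in 10 settings. The cause of these changes was not tested. No paired analysis was possible because the labels give no numbers that pair animals. With 3 animals per group and dim probe sets for NCF1 and MARCO, small differences could not be resolved.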
